A study of Homo sapiens and Mus musculus with 69 samples.

Results

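Chemokines are small secreted proteins that guide leukocytes along gradients, and each acts on 1 or a few receptors on the attracted cells. CCL2 attracts monocytes through CCR2. CXCL10 and CCL5 attract activated T cells and NK cells, CXCL10 through CXCR3. CXCL1, CXCL2 and CXCL8 attract neutrophils through CXCR2, whereas CX3CL1 and CXCL16 are made as membrane-bound proteins that can be shed by ADAM proteases. IL6 and LIF are cytokines that both signal through the shared receptor subunit gp130, encoded by IL6ST, to STAT3. Many of these genes are transcribed after activation of NF-kappa B or interferon regulatory factors, pathways that lie downstream of the DNA sensor adaptor STING. Neuroendocrine small cell lung cancer (SCLC) is known for low inflammatory signalling.

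The genes described here are these 10 chemokine and cytokine genes, chosen by name: CXCL10, CXCL1, CXCL2, CXCL8, CXCL16, CX3CL1, CCL2, CCL5, IL6 and LIF. In the human table of 20516 genes 9 of the 10 had a row, and in the mouse table of 18501 genes 9 of the 10 mouse symbols had one. CXCL8 was not analysed here. Polyadenylated RNA of 69 libraries was sequenced, 60 from human and 9 from mouse SCLC lines, in 23 groups of 3 libraries. Nothing in the labels says whether the 3 libraries of a group came from separate cultures, so P values measure the spread between these libraries, which may be technical.

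H82, H524, H69 and COR-L88 are human SCLC cell lines. H82, H524 and H69 were profiled as parental cells and with a lentiviral, doxycycline-inducible vector for the NOTCH1 intracellular domain (N1ICD), the active form of the receptor, without doxycycline (no dox) and with 1 µg/mL doxycycline (dox). H524 was also profiled with an inducible vector for REST, a repressor of neuronal genes, with and without dox. H82 cells with the N1ICD vector were also profiled after CRISPR knockout (KO) of REST and, separately, of STING1, each with and without dox, so that all H82 KO groups carry the N1ICD vector. According to the methods, adherent cells were collected after at least 28 days of dox. The study's figure legends give 56 days for H82 with and without REST KO and for H524, and more than 56 days for H69. The labels give no time. COR-L88 was treated for 28 days with DMSO as vehicle, with 100 nM of the LSD1 inhibitor TAS1440, or with TAS1440 and 2 µM of the gamma-secretase inhibitor (GSI) BMS-708163, which blocks Notch cleavage. COR-L88 STING1 KO cells received DMSO or TAS1440. KP1, a mouse line mutant for Rb1 and Trp53, received DMSO, TAS1440 or TAS1440 with 10 µM of the GSI dibenzazepine (DBZ) for more than 28 days. The KO cells shown in the study were single-cell clones, and which clones were sequenced is not given in the sources used here.

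Levels are given as the deposited log2(RPKM + 1), where RPKM is reads per kilobase of gene, scaled to library size, and a difference of 2 group means on this scale is called a log2 fold change, which understates the change of low genes. Differences were tested with limma on genes that reached a log2 value of 1 in 3 or more libraries of the line. A gene was called at a Benjamini-Hochberg adjusted P under 0.05 over all tested genes together with a log2 fold change of at least 1 in size. The size of a single read was recovered from the low values, and all 335 human member values above 0 lay within 0.05 of a whole number of reads. These read numbers are given below for genes near 0. The relative depth of the human libraries ranged from 0.698 to 1.52 and that of KP1 libraries from 0.872 to 1.07. An RPKM of 1 corresponded to 203 reads of LIF, 67.0 of CXCL16, 44.0 of IL6, 21.5 of CXCL10 and 13.3 of CCL2, but only 2.22 of CXCL2, at median depth. A read of CXCL2 was thus worth 18.9 times as much RPKM as a read of CXCL1, although the longest annotated transcripts are 1115 and 1174 bases, so levels are compared here within a gene and not between genes. The fixed minimum was therefore reached by few reads of CXCL2 and was missed by a library with 183 reads of LIF. CXCL1, CXCL2 and CXCL3 are close paralogs, and how the counting divided reads between them is uncertain.

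The labels were first compared with the targeted genes. NOTCH1 transcript was at 1.16 ± 0.29 (SD, n = 3 here and below) in uninduced and 4.86 ± 0.66 in induced H82, at 1.20 ± 0.38 and 8.06 ± 0.42 in H524, and at 0.39 ± 0.01 and 7.99 ± 0.08 in H69. In induced REST KO cells it was at 9.55 ± 1.05 and in induced STING1 KO cells at 6.96 ± 0.85, both above every induced H82 library without KO. STING1, listed under its older symbol TMEM173, was at 2.20 ± 0.29 in TAS1440-treated COR-L88 and at 1.07 ± 0.10 in the treated libraries labelled STING1 KO. In induced H82 it was at 1.11 ± 0.05 without KO and at 1.61 ± 0.39 in the libraries labelled STING1 KO, so transcript level did not mark this knockout. NOTCH1 was also higher in the treated COR-L88 libraries labelled STING1 KO, at 4.11 ± 1.13 against 2.35 ± 0.40. With TAS1440 + GSI the NOTCH1 transcript was higher still, at 6.73 ± 0.02. Transcript level alone does not test a frameshift. REST was at 5.26 ± 0.54 in induced libraries labelled REST KO against 6.31 ± 0.18. Of 8 leukocyte markers with a human row, PTPRC reached 0.38 and CD3E 0.14 at most in any library, while CD14 reached 4.88. Summed over the list these markers were at 26.9 to 29.3 RPKM in induced and 7.43 to 11.1 RPKM in uninduced H69, and at 3.04 to 5.44 against 2.69 to 6.79 RPKM in H82. Neuroendocrine markers summed to 9024 to 22364 RPKM in uninduced and 258 to 451 RPKM in induced H82, to 1428 to 2457 against 132 to 137 RPKM in H69, and to 640 to 681 against 6.07 to 79.3 RPKM in DMSO and TAS1440-treated KP1. The part of either marker list in the results below was not tested. Comparisons within a line share libraries, so they are not independent of each other.

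The 250 bases before the RefSeq transcription start were available for 4 of the human genes, CXCL10, CXCL1, CXCL2 and IL6. They are shown for 3 of them because CXCL1 and CXCL2 are paralogs on the same chromosome arm, and because IL6 reads were near 0 before induction or treatment. Sequences run 5′ to 3′ on the strand of the gene, each was matched to 1 place in GRCh37, and capitals mark matches to 6 motifs that were searched on both strands.

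CXCL1 (chr4:74734860-74735109, plus strand): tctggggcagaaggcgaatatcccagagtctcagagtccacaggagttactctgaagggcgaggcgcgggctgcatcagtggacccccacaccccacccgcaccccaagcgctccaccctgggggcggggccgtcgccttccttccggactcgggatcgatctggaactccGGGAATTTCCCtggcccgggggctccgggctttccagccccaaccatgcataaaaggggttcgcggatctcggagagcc
CXCL2 (chr4:74964913-74965162, minus strand): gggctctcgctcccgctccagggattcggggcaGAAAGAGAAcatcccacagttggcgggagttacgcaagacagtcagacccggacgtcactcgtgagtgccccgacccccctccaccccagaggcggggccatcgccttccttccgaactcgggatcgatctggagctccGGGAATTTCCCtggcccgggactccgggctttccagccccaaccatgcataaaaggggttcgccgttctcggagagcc
IL6 (chr7:22766569-22766818, plus strand): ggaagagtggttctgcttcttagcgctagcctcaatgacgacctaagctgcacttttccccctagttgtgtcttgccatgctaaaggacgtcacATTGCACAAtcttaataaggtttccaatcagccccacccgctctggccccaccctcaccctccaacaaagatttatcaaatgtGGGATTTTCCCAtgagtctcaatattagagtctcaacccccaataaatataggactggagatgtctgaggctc

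CXCL1 and CXCL2 shared an unbroken run of 42 bases that begins at position -57 from the start in both. The kappa B consensus, the site of NF-kappa B, matched in all 4 of the windows and in 5.21% of 35116 promoter windows of the same length. Counted from the start, it lay at -79 to -70 and, overlapping, -78 to -69 in CXCL1, at -78 to -69 and -77 to -68 in CXCL2, at -73 to -64 in IL6, and at -177 to -168 and -122 to -113 in CXCL10. The ISRE core GAAANNGAA, the site of interferon regulatory factors, matched in CXCL2 and CXCL10 and in 6.88% of all windows. A C/EBP site, TTNNGCAAT, matched in IL6 and in 2.04% of windows. The RBPJ core TGGGAA, the letters bound by the DNA-binding partner of Notch, matched in IL6, where it overlaps the kappa B match, and in 20.8% of windows. The GAS core TTCNNNGAA (6.57% of windows) and the AP-1 site TGANTCA (6.57%) had no match in these 4 windows. A match is a description of letters and not a measured binding site.

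**Figure D1:**
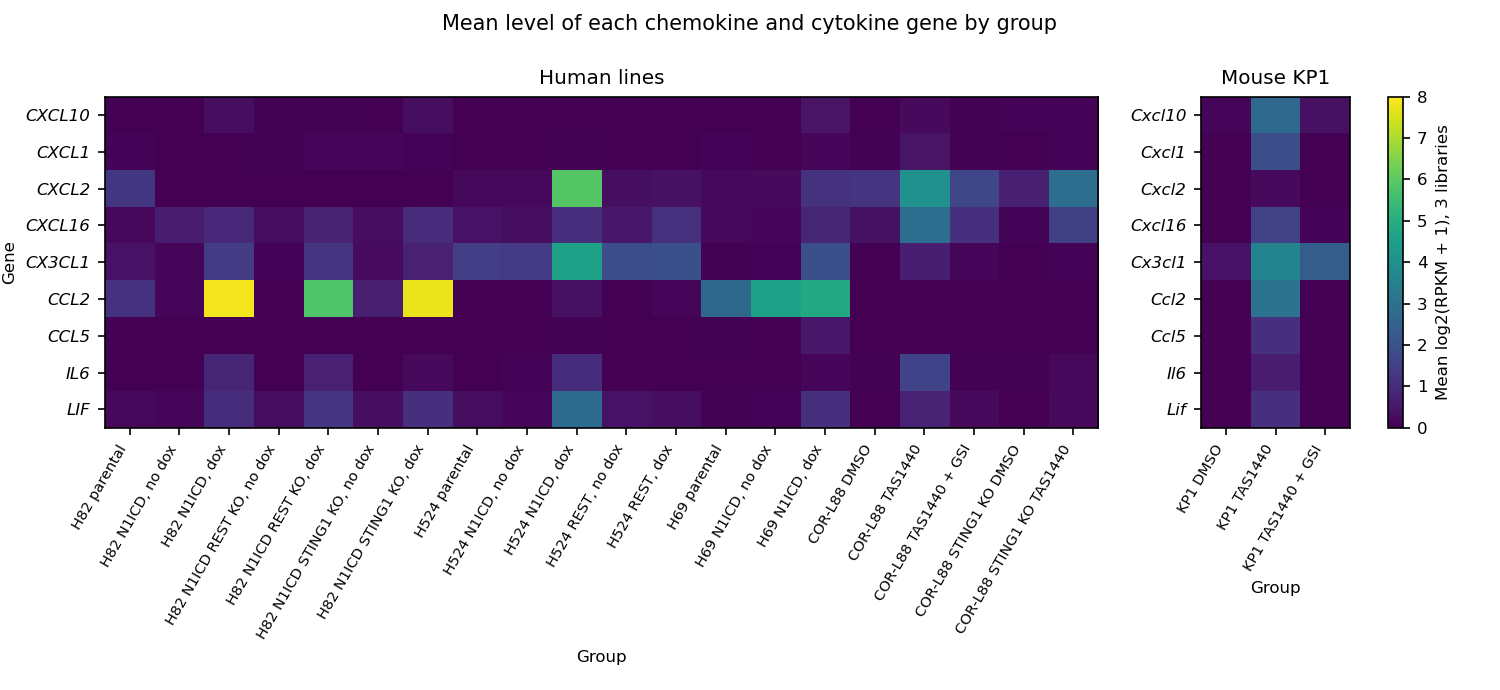
Mean log2(RPKM + 1) of 3 libraries for each gene (rows) in each group (columns), human lines on the left and mouse KP1, which was normalized separately, on the right; yellow is high. Within the CCL2 row the 3 induced H82 groups are the highest, with means of 5.80 to 7.85, and CXCL10, CXCL1 and CCL5 stay below 1 in every human group.

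Which members could be tested differed between lines, because each had to reach the minimum in the libraries of the line. Several passed it only through induced or treated groups. Examples were CX3CL1 and LIF in H82 and H69, CXCL2, LIF and CXCL16 in H524, CXCL16 in COR-L88, and Cxcl10, Cxcl1 and Ccl2 in KP1. Their direction was thus fixed by the minimum, and the counts below are descriptions. In H82 induction, 4 members were tested and 2 of them were called higher, CX3CL1 and CCL2, with 27.1% of all tested genes called. In H524, 3 of 4 were called higher, CXCL2, CX3CL1 and LIF, with 18.6% of all genes called. In H69, CX3CL1 alone of 3 was called higher, with 41.8% of all genes called, so that the share of members was no larger than that of all genes. Both tested members, CXCL2 and CXCL16, were called higher with TAS1440 in COR-L88 (22.8% of all genes called). All 4 tested members, Cxcl10, Cxcl1, Cx3cl1 and Ccl2, were called higher with TAS1440 in KP1 (18.8%). No member was called lower in any of these 5 comparisons. Members under the minimum were not tested on their own in a line, and for these the value of every library is given. An exact two-sided permutation test of 3 against 3 libraries cannot go below P = 0.1.

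**Figure D2:**
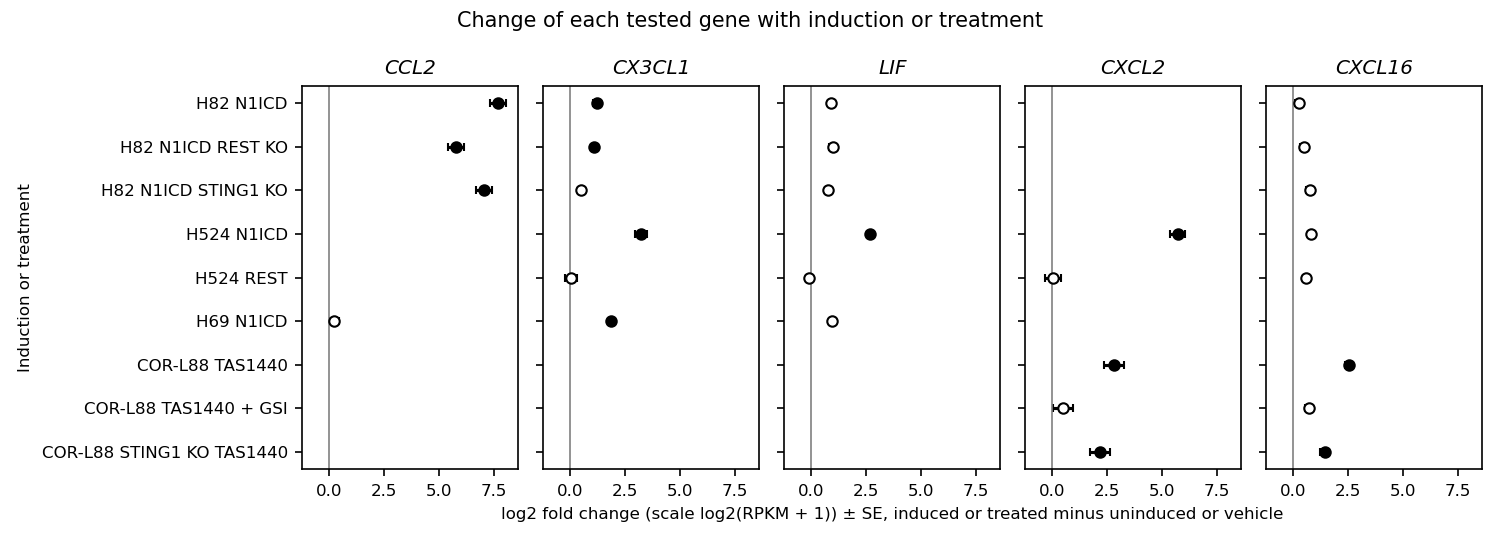
Log2 fold change on the log2(RPKM + 1) scale with its standard error (horizontal bars) for the 5 genes tested in at least 2 lines or treatments, by induction or treatment; filled points were called. CCL2 has filled points in the 3 H82 backgrounds only, and CX3CL1 in H82 without KO, H82 REST KO, H524 and H69.

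CCL2 (chr17:32582293-32584227, plus strand, GRCh37) was near 0 in uninduced H82 and high in induced H82. The 3 induced H82 libraries were at 7.35, 8.23 and 7.96, from 2743, 5141 and 4434 reads, and the 3 uninduced libraries at 0.27, 0 and 0.20, from 3, 0 and 2 reads. The groups did not overlap, and the log2 fold change was 7.69 ± 0.36 (SE; adjusted P = 1.37e-11). Parental H82 libraries held 31, 17 and 17 reads of CCL2, more than the uninduced vector cells (log2 fold change of vector against parental -1.01 ± 0.36, adjusted P = 0.0745, not called; no member was called in this comparison, with 6.41% of all genes called). Over all 20 human groups the order of CCL2 was induced H82 (7.85 ± 0.45), induced STING1 KO (7.76 ± 0.92), induced REST KO (5.80 ± 0.59), induced H69 (4.85 ± 0.08), uninduced H69 (4.59 ± 0.49) and parental H69 (2.66 ± 0.04). The first pair and both vector groups of H69 overlapped with their neighbour in this order, and the other neighbours did not.

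Induced libraries labelled REST KO held 604, 1210 and 538 reads of CCL2, at 5.55, 6.47 and 5.37. They were below all induced libraries without KO, by a log2 fold change of -2.05 ± 0.36 (adjusted P = 2.70e-04), and CCL2 was the only one of 4 tested members called between these groups (17.6% of all genes called). Within the REST KO cells CCL2 still rose with dox by 5.77 ± 0.36 (adjusted P = 3.21e-10), one of 2 members called there beside CX3CL1 (29.9% of all genes called). The change with dox was smaller in REST KO cells by 1.93 ± 0.52 on the log2 scale (adjusted P = 0.0148, 12.9% of all genes called), and with a pseudocount of 0.1 this difference was not called (adjusted P = 0.232). NOTCH1 transcript was higher in the induced REST KO libraries than in those without KO, and its part in the CCL2 level was not tested.

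In the induced libraries labelled STING1 KO, CCL2 was at 6.72, 8.44 and 8.12, within and around the range without KO. The difference was -0.09 ± 0.36 (adjusted P = 0.876), and no member was called between these groups, with 16.5% of all genes called. CCL2 rose with dox in the STING1 KO cells by 7.06 ± 0.36 (adjusted P = 6.25e-11), and no other member of the 4 tested reached the fold minimum (20.2% of all genes called). With a pseudocount of 0.1 all 4 were called, and in depth-scaled reads CXCL16 was 5.20-fold and LIF 4.81-fold higher with dox. The test of whether this change differed from that without KO gave -0.63 ± 0.52 (adjusted P = 0.493), and no member was called in it (7.12% of all genes called). Relative depth was 0.818 to 0.821 in the induced STING1 KO libraries and 1.27 to 1.35 in those without KO.

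In H69, CCL2 was present before induction. Parental libraries held 61, 62 and 72 reads, uninduced vector libraries 174, 262 and 323 reads, and induced libraries 256, 293 and 282 reads. The vector cells without dox were above parental cells by 1.93 ± 0.21 (adjusted P = 2.82e-04), the only member of 3 called in that comparison (5.27% of all genes called). Dox added 0.25 ± 0.21 (adjusted P = 0.272), and the groups overlapped. In H524, no CCL2 read was found in parental or uninduced libraries, and the induced N1ICD libraries held 7, 0 and 8 reads. COR-L88 libraries held at most 1 read of CCL2 in any of the 15 libraries. The response of CCL2 to N1ICD was smaller in H69 than in H82 by 7.44 ± 0.36 on the log2 scale (adjusted P = 3.69e-22), the only one of 6 members called in that comparison of lines (43.1% of all genes called). It was smaller in H524 than in H82 by 7.33 ± 0.36 (adjusted P = 4.90e-21). In KP1, Ccl2 was listed at 0 in all 6 DMSO and TAS1440 + GSI libraries and stood at 2.91, 4.77 and 1.47 in the TAS1440 libraries (log2 fold change 3.05 ± 0.64, adjusted P = 0.00472).

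**Figure D3:**
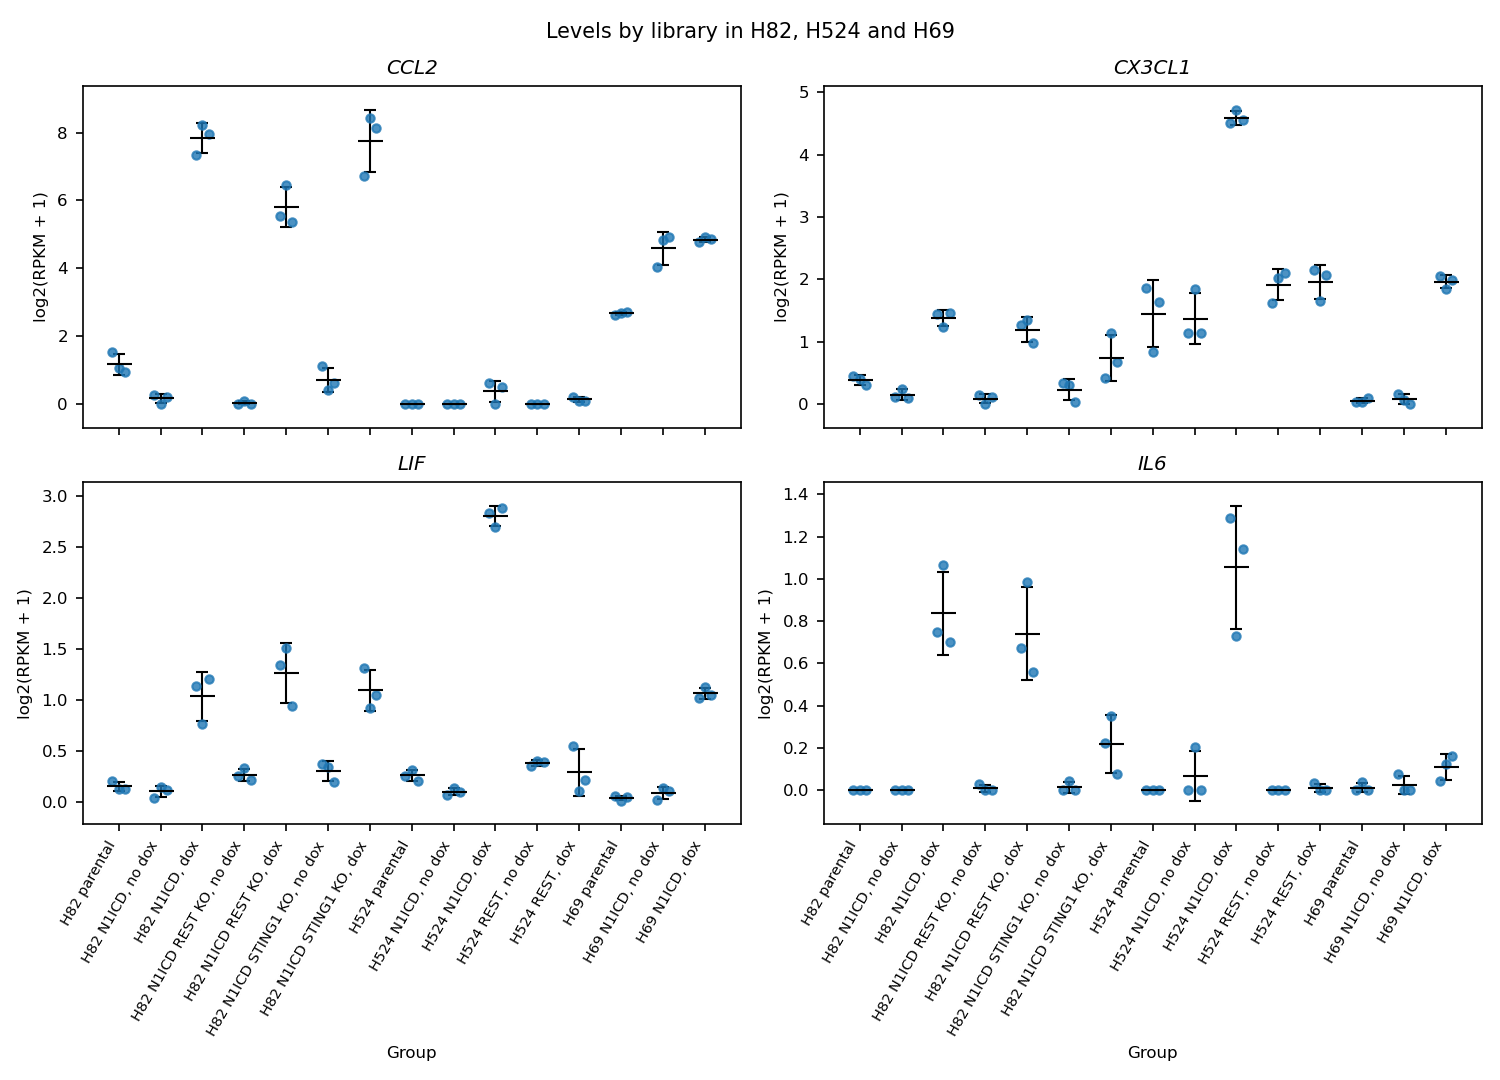
Log2(RPKM + 1) of CCL2, CX3CL1, LIF and IL6 in each library (points) of the H82, H524 and H69 groups, with the mean and SD (black bars, n = 3). The y axes differ between panels. CCL2 stands above 5 in the 3 induced H82 groups and at or below 0.61 in all H524 libraries.

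CX3CL1 (chr16:57406389-57418956, plus strand), also called fractalkine, was called in all 3 N1ICD lines, in H82 not under quantile normalization (0.92). In H82 and H69 it passed the minimum only through induced libraries, so the direction of these calls was fixed by the minimum. In H524 it went from 1.13, 1.84 and 1.14 without dox to 4.50, 4.72 and 4.55 with dox, or from 66, 157 and 91 reads to 1263, 1830 and 1979 reads (log2 fold change 3.22 ± 0.27, adjusted P = 5.98e-07). In depth-scaled reads this was 14.2-fold. In H69 it went from 6, 2 and 0 reads to 135, 114 and 130 reads (1.89 ± 0.08, adjusted P = 4.69e-08). In H82 it went from 5, 12 and 4 reads to 127, 102 and 136 reads, 14.4-fold in depth-scaled reads (1.23 ± 0.16, adjusted P = 4.82e-06). The groups did not overlap in any of the 3 lines. On the log2(RPKM + 1) scale the response was larger in H524 than in H82 by 1.99 ± 0.25 (adjusted P = 1.92e-08), and with a pseudocount of 0.1 that difference was 0.76 (adjusted P = 0.321). Against H69 the H524 response was larger by 1.33 ± 0.25 (adjusted P = 1.84e-05), and with the pseudocount of 0.1 it was smaller by 0.53 (adjusted P = 0.440). The order of the lines in this response thus rested on the pseudocount. The H524 cells were the only human cells with CX3CL1 above 0.5 before induction, with parental libraries at 1.86, 0.84 and 1.64.

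In induced REST KO cells CX3CL1 rose by 1.11 ± 0.16 (adjusted P = 1.38e-05), a call that was lost under quantile normalization (0.60). In induced STING1 KO cells it was at 0.42, 1.14 and 0.67, from 16, 57 and 28 reads, below all induced libraries without KO, and the difference of -0.64 ± 0.16 had an adjusted P = 0.00438 but was under the fold minimum. Its response to dox in STING1 KO cells was 0.51 ± 0.16, and the difference between the responses was -0.72 ± 0.23 (adjusted P = 0.0538). In COR-L88, CX3CL1 was under the minimum for a test. DMSO libraries held 1, 0 and 0 reads, TAS1440 libraries 43, 35 and 19, TAS1440 + GSI libraries 7, 5 and 2, STING1 KO DMSO libraries 0 and STING1 KO TAS1440 libraries 4, 2 and 4. The TAS1440 libraries were above all others. In KP1, Cx3cl1 was at 0.46, 0.32 and 0.39 with DMSO, at 4.55, 2.65 and 3.58 with TAS1440 and at 2.53, 2.39 and 2.14 with TAS1440 + GSI. The rise with TAS1440 was 3.20 ± 0.38 (adjusted P = 1.82e-04). Cx3cl1 was the only member called with TAS1440 + GSI against DMSO (1.97 ± 0.38, adjusted P = 0.0377; 1.21% of all genes called), and that call was lost without any 1 of the 6 libraries (adjusted P up to 0.159).

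CXCL16 (chr17:4636828-4643223, minus strand), the other membrane-bound chemokine, had reads in all 60 human libraries. Its highest level was in TAS1440-treated COR-L88, at 3.19, 3.10 and 2.41, from 401, 506 and 356 reads. The DMSO libraries were at 0.52, 0.25 and 0.28, from 26, 10 and 17 reads, and the rise was 2.55 ± 0.18 (adjusted P = 1.16e-07), or 23.0-fold in depth-scaled reads. With TAS1440 + GSI it was at 1.21, 1.17 and 0.94, above DMSO by 0.76 ± 0.18 (adjusted P = 0.00828, under the fold minimum; no member was called there, with 9.02% of all genes called). TAS1440 alone was above TAS1440 + GSI by 1.79 ± 0.18 (adjusted P = 7.88e-06). In STING1 KO cells it was at 0.07 in all 3 DMSO libraries, from 3 reads each, and at 1.30, 1.74 and 1.51 with TAS1440 (1.44 ± 0.18, adjusted P = 2.96e-05). Between the TAS1440-treated groups the STING1 KO libraries were lower by -1.38 ± 0.18 (adjusted P = 2.32e-04), 0.301 times the depth-scaled reads, and CXCL16 was the only one of 2 tested members called (6.53% of all genes called). The part of the higher NOTCH1 level of these STING1 KO libraries was not tested. The response to TAS1440 was smaller in STING1 KO cells by 1.11 ± 0.26 on the log2 scale (adjusted P = 0.0220; 4.23% of all genes called). That difference was not called with a pseudocount of 0.1 (-0.48, adjusted P = 0.519) or without DMSO library 11, TAS1440 library 13 or 14, or STING1 KO TAS1440 library 43, and in depth-scaled reads the STING1 KO groups started from 9 reads in all.

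In the N1ICD lines no change of CXCL16 reached the fold minimum. It was 0.81 ± 0.13 higher in induced than in uninduced H524 (adjusted P = 3.58e-04) and 0.62 ± 0.13 higher with induced REST (adjusted P = 0.0290), the member with the smallest adjusted P under REST, where no member was called and 1.87% of all genes were. These REST libraries held 68, 143 and 83 reads against 29, 33 and 34 without dox. In H82 the uninduced libraries held 10, 45 and 70 reads and the induced ones 89, 65 and 80, and the groups overlapped. In H69 the reads went from 11, 2 and 5 to 37, 36 and 44, below the minimum for a test. In KP1, Cxcl16 was at 0.03 at most with DMSO and at 0.82, 2.86 and 0.98 with TAS1440, where 1 library stood apart from the other two.

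The neutrophil chemokine CXCL2 (chr4:74962757-74964913, minus strand) rose in H524 and in COR-L88. Induced H524 libraries held 147, 89 and 312 reads, at 6.07, 5.06 and 6.55, and uninduced ones 0, 1 and 0 reads (log2 fold change 5.72 ± 0.35, adjusted P = 2.35e-08). No read of CXCL2 was found in any H82 library with the N1ICD vector, with or without dox or KO, while parental H82 held 1, 5 and 9 reads. The response in H524 exceeded that in H82 by 5.72 ± 0.56 (adjusted P = 1.96e-11) and that in H69, where induced libraries held 0, 3 and 5 reads, by 4.77 ± 0.56 (adjusted P = 8.74e-10). In COR-L88, CXCL2 went from 5, 1 and 3 reads with DMSO to 48, 26 and 28 with TAS1440 (2.84 ± 0.45, adjusted P = 1.18e-04), to 5, 7 and 5 with TAS1440 + GSI and to 21, 11 and 8 in STING1 KO cells with TAS1440. Both CXCL2 (2.32 ± 0.45, adjusted P = 9.53e-04) and CXCL16 were called higher with TAS1440 than with TAS1440 + GSI (14.7% of all genes called), and both were called with TAS1440 in STING1 KO cells (CXCL2 2.21 ± 0.45, adjusted P = 0.00137; 16% of all genes called). CXCL2 was not called between STING1 KO and intact cells under TAS1440 (-1.13 ± 0.45, adjusted P = 0.0788), and the groups overlapped.

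CXCL1 (chr4:74735110-74737025, plus strand) stayed low in the human lines, at 0.63 or less in all 60 libraries. Induced H524 libraries held 2, 0 and 2 reads of it. How reads were divided between CXCL1 and its paralog CXCL2 is uncertain, so their levels were not compared. In COR-L88 the TAS1440 libraries held 11, 23 and 7 reads and the DMSO libraries 2, 1 and 2, without overlap. In KP1, Cxcl1 was at 2.57, 1.36 and 1.84 with TAS1440 and listed at 0 in all 6 other libraries (1.92 ± 0.25, adjusted P = 2.60e-04). Cxcl2 was at 0.24, 0.35 and 0 and listed at 0 elsewhere.

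**Figure D4:**
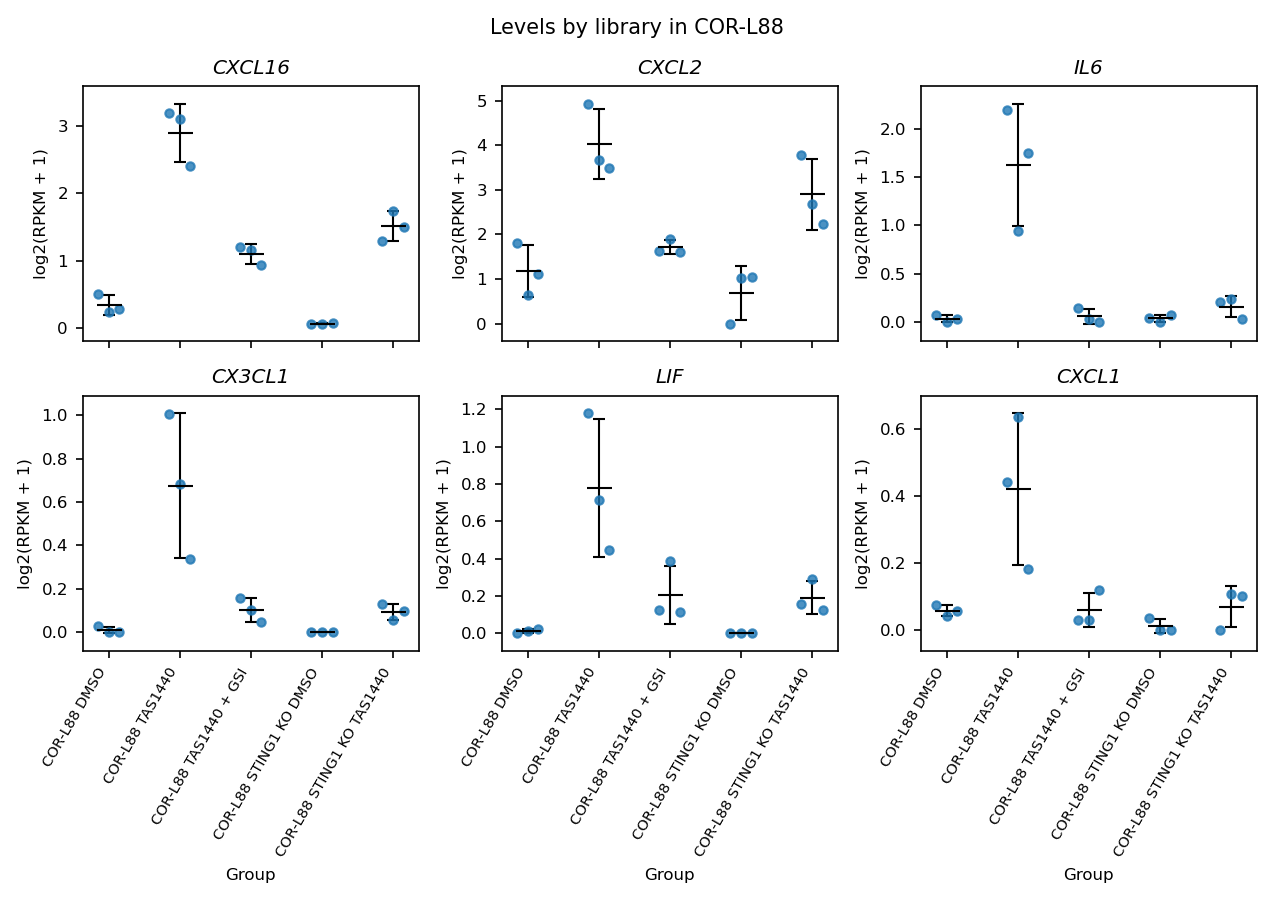
Log2(RPKM + 1) of CXCL16, CXCL2, IL6, CX3CL1, LIF and CXCL1 in each library (points) of the 5 COR-L88 groups, with the mean and SD (black bars, n = 3); the y axes differ between panels. For IL6, CX3CL1 and LIF each TAS1440 library without KO lies above all libraries of the other 4 groups.

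The T cell chemokines CXCL10 (chr4:76942271-76944650, minus strand) and CCL5 (chr17:34198495-34207797, minus strand) stayed at a log2 value of 0.73 or less in all 60 human libraries. CXCL10 was listed at 0 in 40 libraries and CCL5 in 48. H69 was the line in which both were seen in every induced library: CXCL10 held 5, 8 and 4 reads and CCL5 held 11, 20 and 9 reads, against 0 in all 3 uninduced libraries for both. With 3 reads over the group as the limit that a count of 0 allows, these were at least 6.06-fold and at least 14.3-fold higher, and these bounds cover counting error only. In induced H82 the CXCL10 reads were 1, 18 and 2, so that 1 library held most of them, and uninduced libraries held none. Induced H82 libraries labelled STING1 KO held 0, 9 and 4 reads of CXCL10. In COR-L88 the TAS1440 libraries held 0, 3 and 8 reads of CXCL10, and in H524 no induced N1ICD library held any. CCL5 reached 4 reads at most outside H69.

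In KP1, whose values were not compared with the human table, Cxcl10 was at 0.08, 0.11 and 0.13 with DMSO, at 2.65, 4.27 and 1.27 with TAS1440 and at 0.39, 0.24 and 0.44 with TAS1440 + GSI. The rise with TAS1440 was 2.63 ± 0.58 (adjusted P = 0.00631). Ccl5 was at 1.11, 1.68 and 0.54 with TAS1440, at most 0.05 with TAS1440 + GSI and listed at 0 with DMSO. All 4 tested members were called higher with TAS1440 than with TAS1440 + GSI (16.5% of all genes called), with log2 fold changes of 2.38 ± 0.58 for Cxcl10 (adjusted P = 0.0120), 1.92 ± 0.25 for Cxcl1 (adjusted P = 3.12e-04), 1.24 ± 0.38 for Cx3cl1 (adjusted P = 0.0352) and 3.05 ± 0.64 for Ccl2 (adjusted P = 0.00543). Cxcl10, Cxcl1 and Ccl2 passed the minimum only through the TAS1440 libraries, so of the 4 only Cx3cl1 could have been called in either direction. The call of Cx3cl1 in this comparison was lost without TAS1440 library 4 or 6 or any 1 of the TAS1440 + GSI libraries. The 3 TAS1440 libraries correlated less with each other over all genes (Pearson r 0.936 to 0.960) than those of the other KP1 groups (0.968 to 0.996). Library 5 was the highest of them for Cxcl10, Cxcl2, Cxcl16, Ccl2, Ccl5, Il6 and Lif and the lowest for Cxcl1 and Cx3cl1. Without library 5 the log2 fold change with TAS1440 was 1.86 for Cxcl10 and 2.19 for Ccl2, and both were still called.

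**Figure D5:**
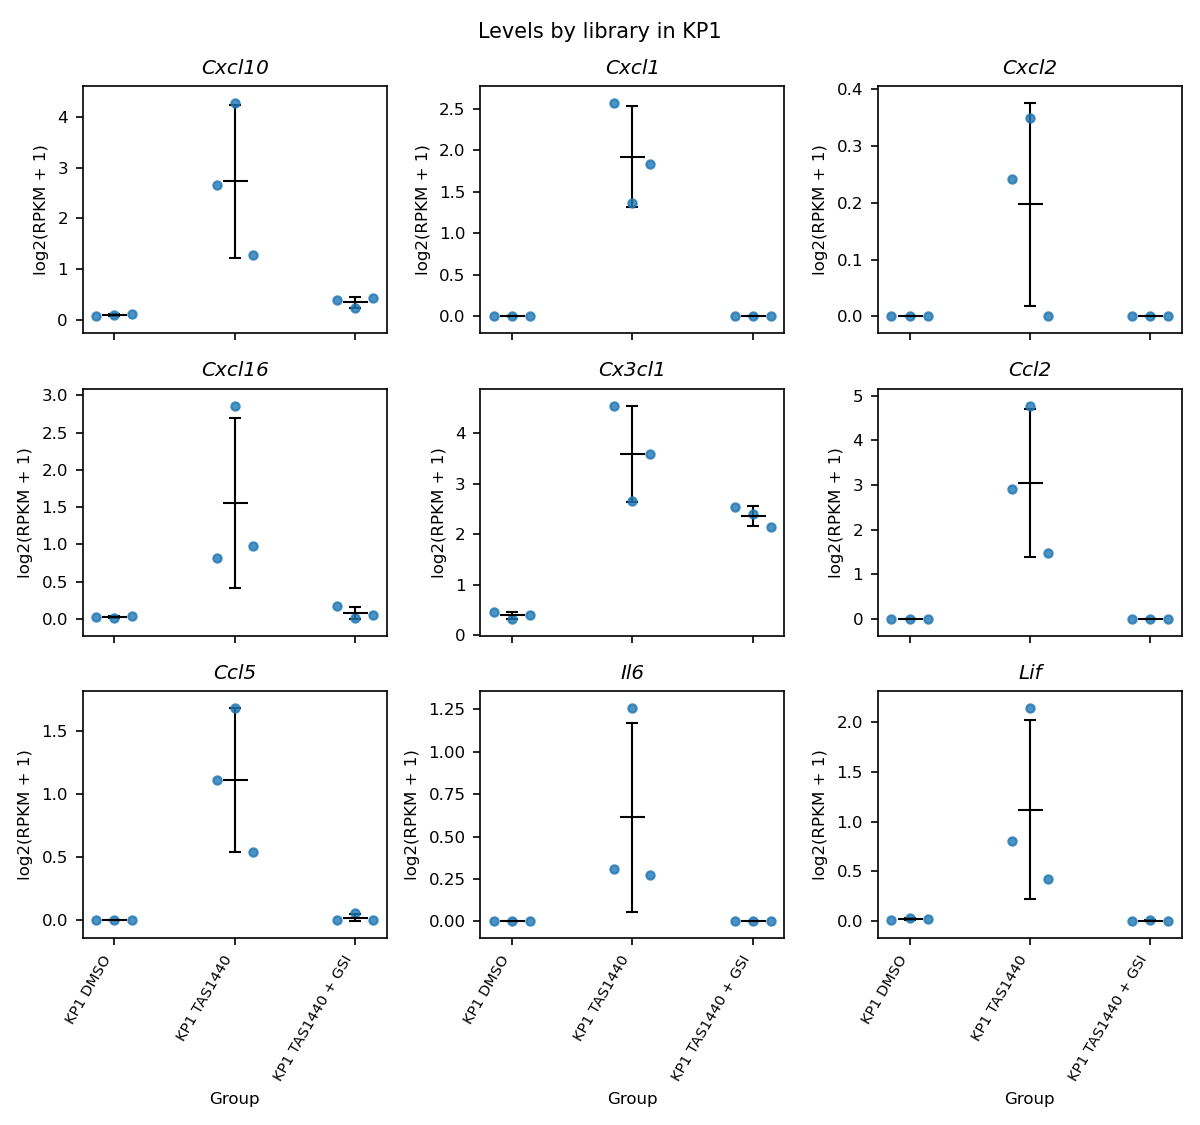
Log2(RPKM + 1) of 9 mouse genes in each KP1 library (points), with the mean and SD (black bars, n = 3), for DMSO, TAS1440 and TAS1440 + GSI; the y axes differ between panels. All genes but Cxcl2 are higher in each TAS1440 library than in any other library, and Cx3cl1 alone stays above 2 with GSI. Cxcl1, Ccl2 and Il6 are listed at 0 in all other libraries. Of all tested genes 18.8% were called with TAS1440 against DMSO, and the share of all genes separated by library was not computed.

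IL6 (chr7:22765503-22771621, plus strand) was at or near 0 in uninduced and vehicle-treated cells of every line. H82 libraries held 0 reads without dox and 38, 62 and 37 with dox, at least 37.8-fold higher. H524 libraries held 0, 7 and 0 reads without dox and 64, 36 and 81 with N1ICD. COR-L88 libraries held 2, 0 and 1 reads with DMSO, 115, 40 and 128 with TAS1440, and 5, 1 and 0 with TAS1440 + GSI. In each of these lines the induced or TAS1440-treated group did not overlap with its control. With induced REST, H524 held 1, 0 and 0 reads. H69 held 1, 3 and 4 reads of IL6 after induction. IL6 was tested only over all 60 libraries. On the log2 scale its response was smaller in H69 than in H82 by 0.75 ± 0.20 (adjusted P = 0.00154) and smaller in H69 than in H524 by 0.90 ± 0.20 (adjusted P = 2.39e-04), both under the fold minimum. IL6 reached a log2 value of 1 in 5 libraries, of induced H82, induced H524 and TAS1440-treated COR-L88. It was thus tested only through groups where it was high, and these P values are descriptions. In KP1, Il6 was at 0.31, 1.26 and 0.27 with TAS1440 and listed at 0 in all 6 other libraries.

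Among the members with enough reads for a ratio, IL6 was the lowest relative to intact cells in the induced or treated STING1 KO groups of both lines. In COR-L88 treated with TAS1440, libraries labelled STING1 KO held 5, 7 and 1 reads, 0.0519 times the depth-scaled reads of intact cells. In induced H82 they held 6, 10 and 2 reads, 0.209 times those without KO. The groups did not overlap in either line, and IL6 was below the minimum for a test in both. In induced REST KO cells IL6 held 26, 45 and 21 reads, 0.866 times those without KO in depth-scaled reads, and the groups overlapped.

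LIF (chr22:30636442-30642748, minus strand), the other gp130 cytokine, was called with N1ICD in H524 and was higher, under the fold minimum, in H82 and H69. In H524 it went from 10, 22 and 19 reads to 1242, 1373 and 1964 reads, at 2.83, 2.69 and 2.88 with dox, 78.7-fold in depth-scaled reads (2.69 ± 0.12, adjusted P = 1.45e-09). In H82 it went from 7, 25 and 19 to 309, 183 and 357 reads, 13.8-fold, and in H69 from 3, 15 and 14 to 154, 181 and 164 reads, 16.7-fold. On the log2(RPKM + 1) scale these were 0.93 ± 0.15 (adjusted P = 5.78e-05) and 0.97 ± 0.06 (adjusted P = 8.33e-07), just under the fold minimum. LIF passed the minimum for a test in H82, H69 and H524 only through induced libraries, so the direction of these changes was fixed by it. The response in H524 exceeded that in H82 by 1.77 ± 0.17 (adjusted P = 3.18e-11), one of 4 members called in that comparison beside CXCL2, CX3CL1 and CCL2 (19.7% of all genes called). It exceeded that in H69 by 1.72 ± 0.17 (adjusted P = 2.04e-11), where CXCL2, CX3CL1 and LIF were the 3 members called (36.8% of all genes called). In COR-L88, LIF was under the minimum for a test, with 0, 1 and 4 reads with DMSO, 188, 129 and 90 with TAS1440, 19, 72 and 18 with TAS1440 + GSI and 17, 41 and 18 in STING1 KO cells with TAS1440. In induced H82, LIF did not differ beyond the spread between STING1 KO and intact cells (0.06 ± 0.15, adjusted P = 0.789). In KP1, Lif was at 0.80, 2.14 and 0.42 with TAS1440 and at 0.03 at most elsewhere.

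H524 also allowed the 2 inducible factors to be set side by side. Induced REST left CX3CL1 (0.04 ± 0.27, adjusted P = 0.964) and LIF (-0.09 ± 0.12, adjusted P = 0.760) without a called change, and CXCL2 held 1, 0 and 1 reads. CXCL2, CX3CL1 and LIF were called higher with induced N1ICD than with induced REST (5.54 ± 0.35, 2.64 ± 0.27 and 2.51 ± 0.12; adjusted P = 2.80e-08, 3.70e-06 and 2.83e-09; 23.8% of all genes called). The same 3 genes were called in the test of the difference between both responses to dox (5.67 ± 0.49, 3.18 ± 0.38 and 2.78 ± 0.18; adjusted P = 2.06e-06, 4.40e-05 and 9.84e-08; 15.6% of all genes called). CXCL2 and LIF passed the minimum in H524 only through the induced N1ICD libraries. Their direction in both comparisons was thus fixed by the minimum, which did not hold for CX3CL1. REST transcript reached 6.87, 10.72 and 9.43 in the induced REST libraries and 5.96, 5.85 and 6.12 in the induced N1ICD libraries.

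Among 22 other chemokines, few were measured above the minimum. CXCL12, which attracts lymphocytes through CXCR4, was listed at 0 in all uninduced N1ICD vector libraries of H82, H524 and H69 and reached 4.22 ± 0.69, 1.74 ± 0.50 and 6.91 ± 0.03 with dox (adjusted P = 1.08e-07, 6.78e-04 and 5.90e-12). In H524 it was at 2.39 ± 0.72 in parental and 2.07 ± 0.23 in uninduced REST vector cells. In KP1, Cxcl12 went from 0.01 to 6.26 ± 0.72 with TAS1440 (adjusted P = 1.58e-06), while in all COR-L88 libraries it was listed at 0. From controls at or near 0 no fall of CXCL12 or Cxcl12 could have been called, so the direction of these calls was fixed. CCL8, a relative of CCL2, was called in H82 (1.47 ± 0.32) and H69 (3.59 ± 0.06). In H82 2 of 7 tested chemokines were called higher and 1 lower, CXCL11, in H524 2 of 4 higher and 1 lower, CCL26, in H69 3 of 4 higher and 1 lower, XCL1, in COR-L88 1 of 4 higher and 1 lower, CXCL14, and in KP1 2 of 4 higher. Of all tested genes 27.1%, 18.6%, 41.8%, 22.8% and 18.8% were called in these 5 comparisons, in this order.

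Of 26 other inflammatory cytokines, 6 of 13 tested were called higher and 3 lower in H82, 5 and 1 of 10 in H524, 7 and 3 of 13 in H69, 8 and 1 of 11 with TAS1440 in COR-L88, and 2 and 0 of 4 in KP1 (all genes 27.1%, 18.6%, 41.8%, 22.8% and 18.8%). CSF1, the growth factor of macrophages, was called in all 5, by 4.94 ± 0.29 in H82, 6.69 ± 0.26 in H524, 2.95 ± 0.15 in H69, 4.80 ± 0.24 in COR-L88 and 4.69 ± 0.37 in KP1. IL32 was called higher in the 4 human lines, by 2.35 ± 0.26 to 5.70 ± 0.39. MIF fell in the 3 N1ICD lines, by 2.67 in H82, by 1.92 in H524 and by 1.04 in H69 on the log2 scale. Between TAS1440-treated STING1 KO and intact COR-L88 cells, 4 of 11 were called lower and 0 higher, with IL32 (-3.70 ± 0.53), IL18 (-1.58 ± 0.20) and CSF1 (-1.40 ± 0.24) the furthest. Of all tested genes 6.53% were called in this comparison, 664 lower and 194 higher, so calls over all genes also went mostly lower.

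The receptor components of IL6 and LIF were measured in the same cells. IL6R, which binds IL6, was called higher in all 4 human lines, by 2.87 ± 0.31 in H82, 2.05 ± 0.14 in H524, 4.13 ± 0.11 in H69 and 3.26 ± 0.39 in COR-L88. IL6ST rose in H82 (2.11 ± 0.17), H69 (5.20 ± 0.27), COR-L88 (1.57 ± 0.11) and KP1 (1.64 ± 0.40). LIFR rose in H82 (2.57 ± 0.29) and fell in H69 (-1.95 ± 0.25). In the libraries labelled STING1 KO, IL6R was lower than in intact cells in both induced H82 (-1.82 ± 0.31) and TAS1440-treated COR-L88 (-2.53 ± 0.39). IL6ST (-1.05 ± 0.17) and ACKR2 (-1.07 ± 0.23) were also lower in the H82 comparison, and ACKR3 (1.37 ± 0.31) and LIFR (1.16 ± 0.30) were higher in that of COR-L88. SOCS3, an inhibitor that is induced by STAT3, was called higher in the 4 human lines, by 1.12 ± 0.09 to 2.96 ± 0.18, and lower in KP1 (-1.01 ± 0.34). TNFAIP3, an inhibitor of NF-kappa B, rose in H82 (4.49 ± 0.37), H524 (2.37 ± 0.28) and COR-L88 (3.49 ± 0.53), and was lower in STING1 KO than in intact COR-L88 under TAS1440 (-2.68 ± 0.53).

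Of 16 factors known to induce such genes, 5 of 14 tested were called higher in H82, 6 of 13 in H524, 7 of 15 in H69, 6 of 14 in COR-L88 and 3 of 10 in KP1, and none was called lower. Against the share of all genes called, 27.1% in H82, 18.6% in H524, 41.8% in H69, 22.8% in COR-L88 and 18.8% in KP1, the shares in H82 and H69 were near the background. RELB, a subunit of NF-kappa B, rose in the 4 human lines, by 1.36 ± 0.13 to 2.54 ± 0.22. IRF1 rose in H82 (2.40 ± 0.21), H524 (3.20 ± 0.20), COR-L88 (1.52 ± 0.16) and KP1 (1.09 ± 0.18). In TAS1440-treated COR-L88, CGAS, listed as MB21D1, was lower in STING1 KO than in intact cells (-1.28 ± 0.15), as were NFKB2 (-1.14 ± 0.18) and STING1 itself (-1.13 ± 0.14).

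Over the 20 human group means the 6 members that passed the minimum over all lines, which leave out CXCL10, CXCL1 and CCL5, did not follow 1 pattern. The largest Pearson correlation among them was that of CX3CL1 and LIF (r = 0.81), followed by CXCL16 and IL6 (r = 0.76), while CCL2 had r of -0.31 with CXCL2 and 0.05 with CX3CL1. Among 15888 genes the 3 most like CCL2 were PLK2 (r = 0.94), SH3TC2 (0.91) and COL8A1 (0.91), and those most like IL6 were RARRES3 (0.94), FCGR2A (0.91) and CD74 (0.88). LIF was most like LINC00520 (0.95), CMKLR1 (0.95) and VCAM1 (0.93), CX3CL1 most like ABCC9 (0.93), CETP (0.92) and KCNN3 (0.90), CXCL2 most like CACNA2D3 (0.91), SLC23A3 (0.90) and PARP9 (0.90), and CXCL16 most like PROSER2 (0.90), ULBP2 (0.90) and DDX60L (0.89). These are descriptions over 20 group means that share lines and libraries.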

How the data were processed

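Bulk RNA-Seq libraries of SCLC lines (60 human, 9 mouse) were analysed. Per the labels and methods, the authors trimmed reads with cutadapt, aligned them with STAR (hg19 and mm10), quantified genes with RSEM and scaled libraries with TMM factors in edgeR; versions, annotation and gene lengths are not given in the sources used here. The deposited values are log2(RPKM + 1), in separate tables for human lines and for KP1, each with its own scaling, so groups were tested only within a table. Read counts were not among the values, and relative depth and the reads behind member values were recovered from the spacing of low values; such counts carry counting error only.

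Group means of each line were compared with limma 3.58.1 (R 4.3.3) with a variance trend, two-sided, on genes with log2 of at least 1 in at least 3 libraries, with Benjamini-Hochberg adjustment across every tested gene; calls required an adjusted P under 0.05 and a log2 fold change of at least 1. Lines were compared in 1 model over all human groups. The script was tested on simulated data. The members and the gene lists were chosen with earlier results of these data known. Named genes were the members, the targeted genes, of each other list up to 3 called genes in each direction per comparison, and the 3 genes most like each member over group means. Alternatives were no filter, a pseudocount of 0.1, quantile normalization, median centring, no trend, no fold minimum, only the groups compared and leaving out each library. Gene positions are those of GENCODE on GRCh37, and promoter sequences are RefSeq's. Replicate libraries within a group correlated at r of 0.936 to 0.997 and none were identical. Some genes of these lists are not reported here.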

Additional observations from a re-analysis of the deposited data

Results flagged for a closer look

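Responses that differed between lines or backgrounds, each by the interaction test in limma with Benjamini-Hochberg adjustment, are listed here. The response of CCL2 to dox was 1.93 smaller in H82 REST KO than in intact H82 (value -1.93, adjusted P = 0.0148), and that of CXCL16 to TAS1440 was -1.11 in COR-L88 STING1 KO against intact cells (adjusted P = 0.0220). In H524 the response to induced N1ICD exceeded that to induced REST for CXCL2 (5.67), CX3CL1 (3.18) and LIF (2.78). For CXCL2 and LIF this direction was fixed by the minimum, which only induced N1ICD libraries of H524 reached. The response of CCL2 to N1ICD differed by -7.44 between H69 and H82 and by -7.33 between H524 and H82. Against H82, that of H524 was larger for CXCL2 (5.72), CX3CL1 (1.99) and LIF (1.77). H69 against H524 gave -4.77 for CXCL2, -1.33 for CX3CL1 and -1.72 for LIF. Some of these calls were lost with a pseudocount of 0.1. They were CCL2 with REST KO, CXCL16 with STING1 KO, and CX3CL1 for H524 against H82 (0.76) and for H69 against H524 (0.53, reversed). All groups held 3 libraries, too few for a test of single outlying libraries.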

How the results depend on the processing

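No paired analysis was possible because the groups compared share no replicate numbers. Over 1378 recomputed values of 94 results, 344 counts of called members stayed within 1.5 times and 36 moved; of single fold changes 925 kept direction and side of the threshold, 23 lost it, 35 gained it and 15 reversed. Quantile normalization gave 1 called member for N1ICD in H82, 1 in REST KO and 2 in H69, and reversed 4 fold changes that were not called: CXCL16 in REST KO with dox (-0.093), CCL2 (0.16) and LIF (-0.0052) between induced STING1 KO and intact H82, and CX3CL1 with REST in H524 (-0.051). A pseudocount of 0.1 gave 4 for N1ICD in REST KO and in STING1 KO, 2 in H69, 1 between induced STING1 KO and intact H82, 1 for uninduced against parental H82, 1 for TAS1440 + GSI in COR-L88, 0 in the interactions of REST KO in H82 and of STING1 KO in COR-L88, and 4 for H69 against H82; it reversed CXCL2 in the COR-L88 STING1 KO interaction (0.094) and CX3CL1 in H69 against H524 (0.53). With no fold minimum the counts were 4 in REST KO and STING1 KO with dox, 2 in H69, 1 between induced STING1 KO and intact H82, 1 with REST in H524, 1 for TAS1440 + GSI in COR-L88 and 3 for H69 against H82. With no filter they were 1 for uninduced against parental H82, 2 for STING1 KO against intact COR-L88 under TAS1440, 2 in its interaction and 0 for TAS1440 + GSI in KP1, and with only the groups compared 1 for uninduced against parental H82.

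Leaving out 1 library gave 1 to 2 called members for STING1 KO against intact COR-L88 under TAS1440 (2 without STING1 KO library 43), 0 to 1 in its interaction, 0 for TAS1440 + GSI in KP1 without any 1 of its 6 libraries and 1 to 2 for H69 against H82 (2 without induced H69 library 52). Fold changes that reversed, none of them called, ranged from -0.43 to 0.44 (CCL2) and from -0.077 to 0.14 (LIF) between induced STING1 KO and intact H82, from -0.10 to 0.19 (CX3CL1) and from -0.22 to 0.00092 (LIF) with REST in H524, and from -0.027 to 0.42 for CCL2 in H69. The call of CX3CL1 in H82 with and without REST KO was lost under quantile normalization, where its fold change was under the minimum. The other causes were not tested. CXCL10, CXCL1 and CCL5 held few reads in human libraries, which limits what can be seen of them.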
